A study of Drosophila melanogaster x Drosophila simulans with 3 samples.

Results

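Identical exons are the exonic regions whose sequence is deposited as the same in Drosophila melanogaster and Drosophila simulans. They were taken as the regions with a deposited identity of 100% between the species and the same length in both strain references, and they number 3527 of 60040 regions (5.87%). Messenger RNA was measured by paired-end sequencing of 54-base reads in heads of F1 hybrid females, each with a D. melanogaster genome from a mother of strain Berlin and a D. simulans genome from a father of strain C167.4. The 3 libraries, replicates 1 to 3, form a single group, and each came from an independent pool of 200 virgin flies reared at 25 °C and frozen at an age of 1 to 1.5 days. Flies were pooled and the cross was made in 1 direction, so an effect of the species and one of the sex of the parent cannot be told apart. In whole heads, moreover, fewer cells of a type and less RNA per cell cannot be told apart.

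In a hybrid, both alleles of a gene passed on by both parents can be transcribed in the same cells. RNA reads are sorted to an allele by the bases at which the species differ. An exon without such a base is silent on the question of allelic expression, whatever its level. Its reads still report how much RNA it gives, and the exons around it, which do differ, can report which allele their RNA came from. In the identifier of a region, S marks a single exon and F a region joined from overlapping exons.

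The libraries held 26406916, 26601075 and 29004108 reads in replicates 1, 2 and 3. Replicate 2 stood apart in match quality. In identical exons, exact matches made up 62.4%, 30.3% and 57.2% of reads in replicates 1, 2 and 3, and in the other regions 63.7%, 31.0% and 57.3%. The low share in replicate 2 was thus found where the references do not differ as well as where they do. The files hold region identifiers and no gene names, so the head origin of the RNA was not checked with marker genes.

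Identical exons were short. Their median length was 83 bases, with quartiles of 55 and 132, against a median of 303 and quartiles of 165 and 639 in the other 56513 regions. They made up 5.87% of regions and 1.33% of bases. Among regions of up to 54 bases, the length of a read, 46.8% were identical exons. The share was 31.9% at 55 to 80 bases, 15.2% at 81 to 120, 6.08% above that up to 200, 0.932% up to 400 and 0.523% beyond. The shortest 2 identical exons were 1 base long and the longest had 4082 bases. At the short end the rule says little, since a region of a few bases has few places at which the species could differ.

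Regions joined from overlapping exons were fewer among identical exons. The F prefix was carried by 122 identical exons (3.46%) and by 6575 other regions (11.6%). Within length classes the gap was smaller, though the F share was still lower in identical exons in most of them. It was 1.48% in identical exons and 3.51% in others up to 54 bases. At 55 to 80 bases it was 2.33% and 4.49%, and at 121 to 200 bases 3.18% and 5.12%. In regions of over 400 bases the F share was 16.8% in identical exons and 19.1% in others, and at 81 to 120 bases it was 4.03% and 5.01%. Between 200 and 400 bases it was higher in identical exons, at 9.49% against 8.83%. Positions had been altered in at least 1 strain reference in 394 identical exons (11.2%), against 70.0% of the other regions.

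**Figure D1:**
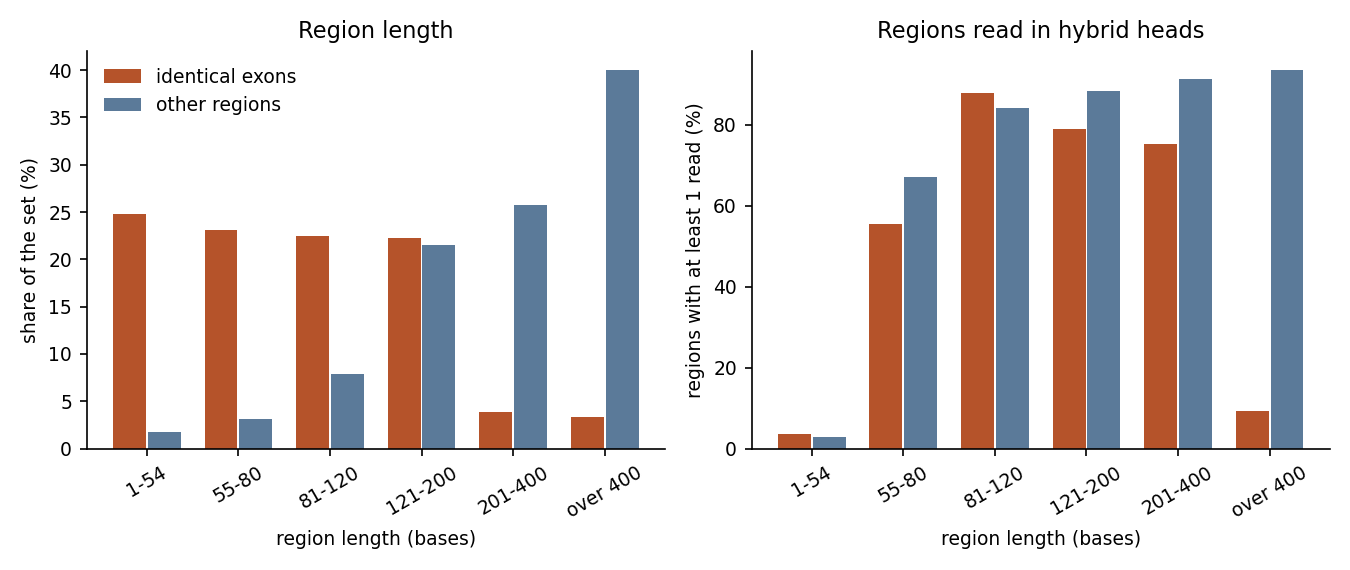
The left panel gives the share of each set by region length in bases, and the right panel the share of regions with at least 1 read over the 3 libraries. Identical exons lie mostly at up to 200 bases, and the 119 above 400 bases were read in 9.24% of cases, against 93.5% of other regions of that length.

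Close to the edge of the rule, 50 regions had 100% identity but unequal lengths, and 32 had from 99.75% to 99.95% identity. Identical exons had 0.302% ± 0.0305 of their reads assigned to an allele (SD, n = 3 libraries). The 50 regions of unequal length had 27.3% ± 1.89 and the 32 regions had 8.42% ± 2.57, at a median length of 585 bases. Farther out, the share was 25.6% ± 2.68 in 305 regions of at least 99.5% identity, 38.6% ± 0.466 in 2367 of at least 99%, and 75.2% ± 0.383 below 98%. These values describe the rule, since identity is what it used.

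Many identical exons gave no read. No library had a read for 1610 of them (45.6%), against 6421 of the other regions (11.4%). Of the 1917 that were read, 1697 (88.5%) were read in all 3 libraries. Among the 876 identical exons no longer than a read, 32 were read (3.65%), and among the 997 other regions of that size 28 were (2.81%). At 55 to 80 bases the read share was 55.5% in identical exons and 66.9% in others, and at 81 to 120 bases it was 87.9% and 84.0%. It was again lower in identical exons at 121 to 200 bases, at 79.0% against 88.2%, and at 201 to 400 bases, at 75.2% against 91.2%. Regions no longer than a read were seldom read in either set. Of the 1610 unread identical exons, 844 (52.4%) were of that size, and a count of 0 says little of their RNA. For longer ones, a count of 0 over the 3 libraries allows up to 3 reads. Their RNA was not detectable at this depth and with this placement of reads, which is not to say absent.

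Length was not all that went with the unread exons. The authors deposited a coverage signal per region for each genotype, whose origin is not stated. It was 0 in both genotypes for 897 identical exons (25.4%), against 2353 other regions (4.16%). Of those 897, 887 were unread (98.9%), and of the other regions without coverage 88.2% were. Among regions of over 54 bases with coverage in both genotypes, 6.50% of 1937 identical exons and 3.59% of 50263 others were unread. Unread identical exons of over 54 bases numbered 766, and 428 of them had no coverage in either genotype.

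Some of the unread identical exons stood in rows. Identifier numbers run through all 60040 regions without a gap, F and S together. Most identical exons (2340, 66.3%) had no other identical exon at an adjoining number, and 40.6% of these were unread. Another 262 stood in 17 runs of at least 6. The 4 runs of more than 30 held 166 identical exons, 163 of them unread, and 8 reads in all. In the longest, 54 identical exons followed each other, 49 of them 135 bases long. A stretch of 99 consecutive regions around that run held 97 identical exons, 91 of them of 135 bases, and 94 were unread.

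Regular patterns of length marked 2 further stretches. In one, 36 consecutive identical exons repeated a unit of 3 lengths, and 25 of 33 regions had the length of the region 3 numbers before. None was read and none had deposited coverage. In the other, 115 regions repeated a unit of 5 lengths, with the same length 5 numbers apart in 92 of 110 cases. It held 46 identical exons, all unread, among regions with identities down to 88.02%. These stretches were picked after their values were seen. Over the whole table, 342 identical exons (9.70%) had an adjoining region of exactly the same length, against 363 other regions (0.642%), and the share was 16.8% in the unread and 3.76% in the read identical exons. Whether copies of a sequence took reads from each other there was not tested.

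**Figure D2:**
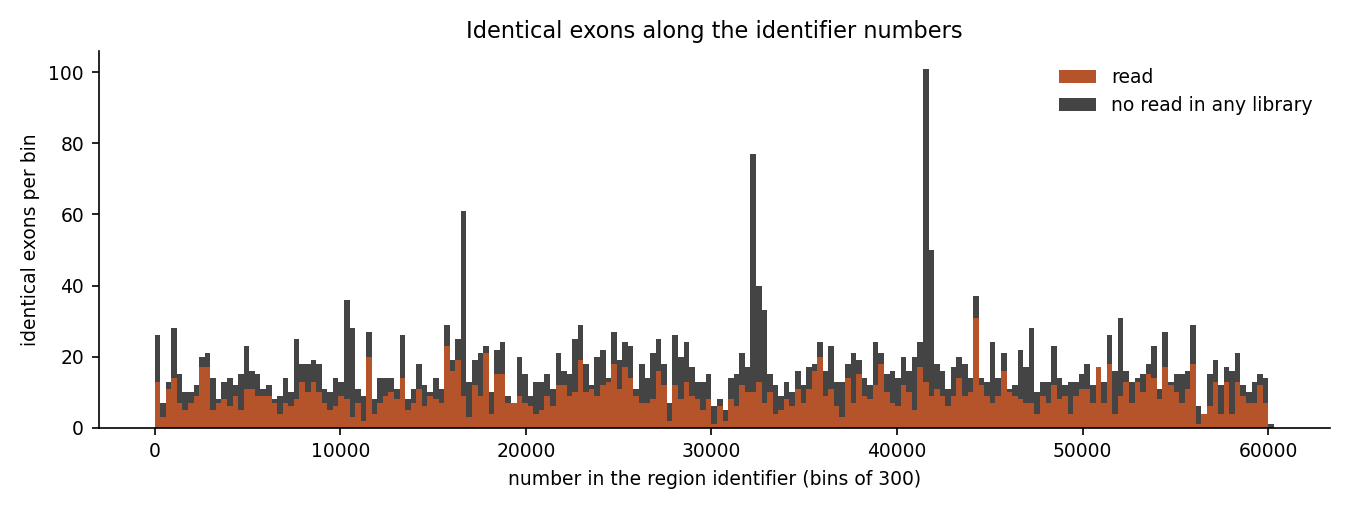
Identical exons are counted in bins along the number of the region identifier, with those that had no read in any library stacked on those that were read. The tallest bins are mostly unread and hold the long runs, of up to 54 exons, and most bins hold a mixture.

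The identical exons that were read carried 211254, 213134 and 254586 reads in replicates 1, 2 and 3. That was 0.800%, 0.801% and 0.878% of the libraries. A mean of at least 20 reads per library was reached by 1027 of them, or 29.1% of all identical exons, against 63.0% of the other regions. The median read identical exon had a mean of 22.7 reads, and 39 had 1000 or more. Reads were concentrated, as the 10 identical exons with the most reads held 25.9% and the 100 with the most held 66.0%.

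S48828_SI, of 277 bases, had the most reads. It had 12194, 12600 and 15482 reads in replicates 1, 2 and 3, or 490 ± 38.6 RPM, the read count scaled to the library total (SD, n = 3). Next came S5046_SI, of 142 bases, with 6259, 6286 and 7078 reads and 239 ± 4.27 RPM. Per base of exon, not scaled to the library total, the pair was almost level, at 48.5 ± 6.47 reads in S48828_SI and 46.1 ± 3.28 in S5046_SI. In replicates 1, 2 and 3 the values were 44.0, 45.5 and 55.9 against 44.1, 44.3 and 49.8. The longest identical exon with a mean of at least 20 reads was F17876_SI, of 483 bases, with 345, 339 and 442 reads and 0.777 ± 0.120 reads per base. In none of the 3 was a single read assigned to an allele.

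Read densities of identical exons were lower than those of other regions over all lengths, and higher within some length classes. Over all regions, the median was 0.0108 ± 0.00131 reads per base in identical exons and 0.166 ± 0.0183 in others (SD, n = 3). At 81 to 120 bases it was 0.194 ± 0.0178 in identical exons and 0.115 ± 0.0138 in others. In the class up to 200 bases the medians were 0.187 ± 0.0174 and 0.165 ± 0.0195, and up to 400 bases 0.196 ± 0.0281 and 0.187 ± 0.0220. Identical exons were higher in each of the 3 libraries in these 3 classes. At 55 to 80 bases they were lower, at 0.00422 ± 0.00731 against 0.0161 ± 0.00101. Above 400 bases, 108 of 119 identical exons were unread and their median was 0.

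A comparison within regions with deposited coverage in both genotypes was added after the data were seen. The condition kept 63.9% of identical exons and 89.7% of other regions, and since 98.9% of the identical exons without coverage were unread, it removed low values from the identical exons more than from the others. At 81 to 120 bases, the median of 696 identical exons was 0.232, 0.232 and 0.263 reads per base in replicates 1, 2 and 3, against 0.158, 0.158 and 0.186 in 3757 other regions. In the next class, up to 200 bases, 620 identical exons had medians of 0.266, 0.269 and 0.311, against 0.199, 0.203 and 0.241. Up to 400 bases, 101 identical exons had 0.365, 0.343 and 0.395, against 0.211, 0.212 and 0.257.

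Under this condition identical exons were denser in each of the 3 libraries in each of these classes, and also at 55 to 80 bases, at 0.0687 ± 0.00723 against 0.0514 ± 0.00615. Up to 54 bases, both medians were 0. Regions are not replicates and all 3 libraries are of 1 group, so no p-value is given for the difference.

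**Figure D3:**
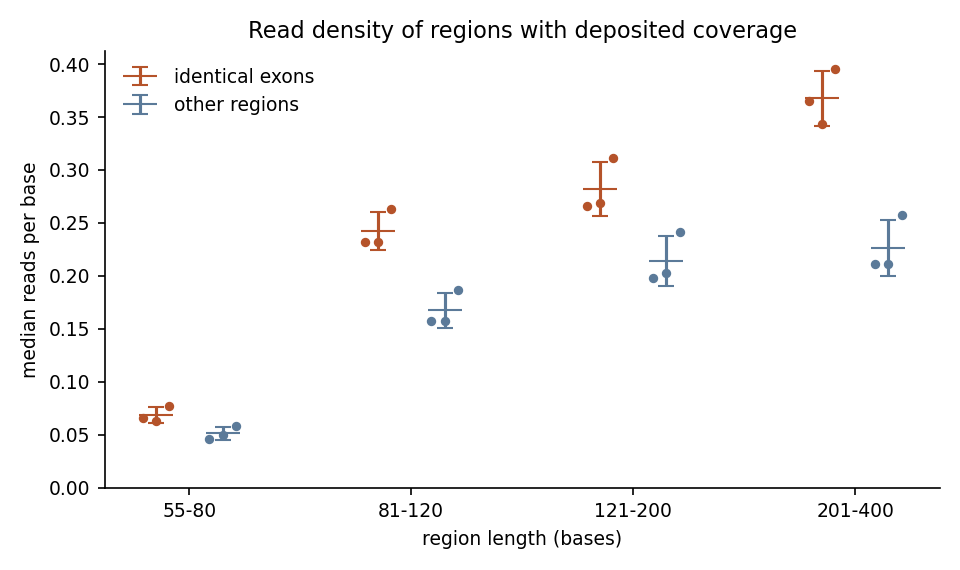
Median reads per base are plotted by region length in bases for regions with deposited coverage in both genotypes. Points are the 3 libraries, and bars give their mean and SD. In each of the 4 classes plotted, from 55 to 400 bases, the identical exons lie above the other regions, at 0.282 ± 0.0253 against 0.214 ± 0.0236 for the class up to 200 bases, for example.

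Set against the regions at both adjoining numbers, identical exons were less dense, as other regions of their length were. The comparison took exons whose adjoining regions were other regions of at least 81 bases with a mean of at least 20 reads. At 81 to 120 bases, the median log2 ratio of an identical exon's reads per base to the mean of its adjoining regions was -0.62 ± 0.03 (SD over n = 3 libraries) in 335 identical exons, against -0.69 ± 0.03 in 1884 other regions. Up to 200 bases it was -0.18 ± 0.01 in 269 identical exons and -0.22 ± 0.02 in 5395 others. Up to 400 bases it was -0.13 ± 0.09 in 42 identical exons and -0.08 ± 0.03 in 6530 others. Across the 335 identical exons, own and adjoining densities correlated at a Spearman's rho of 0.657, against 0.662 across the 1884 other regions of that length. Both values are a description, since regions share libraries and perhaps genes.

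Levels of identical exons varied between libraries slightly less than those of other regions at low depth and slightly more at high depth. At a mean of 20 to 50 reads, the median coefficient of variation of the normalised read count (reads over library total) was 18.1% in 450 identical exons and 19.9% in the others. At 50 to 100 reads it was 14.3% in 253 identical exons and 15.0% in others. At 100 to 300 reads it was 12.0% in 211 identical exons and 11.6% in others. At 300 to 1000 it was 10.6% in 74 and 8.99% in others, and at 1000 or more it was 8.87% in 39 and 7.95% in others.

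Almost no read of an identical exon was assigned to an allele. Of all their reads, 669, 689 and 681 were assigned in replicates 1, 2 and 3, or 0.317%, 0.323% and 0.267%. The 95% exact binomial intervals were 0.293% to 0.342%, 0.300% to 0.348% and 0.248% to 0.288%, and cover counting error only. In the other regions 69.9%, 68.8% and 70.8% of reads were assigned. Of the 1917 identical exons that were read, 1895 (98.9%) had no assigned read. Among the 394 with altered positions in a reference, 2 had one.

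The few assigned reads sat in few exons. Of 2039 assigned reads, 1920 (94.2%) belonged to 5 identical exons, the ones that reached a mean of 20 assigned reads per library. The other 17 exons had 119 between them, 25 of D. melanogaster and 94 of D. simulans. Each allele was compared within a library by edgeR's quasi-likelihood test over all 33303 regions with enough assigned reads, of which 35.6% were called at an adjusted p under 0.05. All 5 identical exons were called, 4 toward D. melanogaster and 1 toward D. simulans, where 23.4% and 12.2% of all tested regions were called. An identical exon entered the test only by holding assigned reads, so this count says nothing of the rest. Those with assigned reads of 1 allele only, such as S8500_SI and S32380_SI, passed the filter through that allele alone. Their calls and adjusted p-values were thus largely fixed by the filter. With a deposited identity of 100%, the calls describe how reads were placed. Whether the alleles differed in expression there was not tested.

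S8500_SI, of 171 bases, gave assigned reads alone. In replicates 1, 2 and 3 it had 357, 352 and 307 D. melanogaster reads, against 0 of D. simulans in each, and no unassigned read. Every read was thus placed with 1 species in each of the 3 libraries, while the deposited coverage was 288 for Berlin and 312 for C167.4. A repeat of the same placement in each library does not tell placement from expression. Assigned D. melanogaster reads were at least 339-fold more, with a floor of 3 counts over the libraries, at an edgeR adjusted p of 4.59e-137. All 1016 reads were placed on the D. melanogaster genome only. The D. simulans reference of this exon had 1 altered position.

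S15063_SI, of 198 bases, held both kinds of read. In replicates 1, 2 and 3 it had 157, 141 and 201 D. melanogaster reads, against 0, 0 and 1 of D. simulans, beside 1072, 1180 and 1310 unassigned reads. The assigned part was 12.8%, 10.7% and 13.4% of the exon's reads. D. melanogaster reads exceeded D. simulans reads by 499-fold over the 3 libraries, with a 95% exact interval of 89.2 to 19748 for counting error, at an edgeR adjusted p of 1.97e-81. The single D. simulans read came from replicate 3, and without that library D. melanogaster had 298 reads against 0 of D. simulans, or at least 99.3-fold more with that floor.

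S32380_SI, of 145 bases, was the opposite case. It had 0 D. melanogaster reads in each library, against 57, 57 and 68 D. simulans reads, and 1 unassigned read. Assigned D. melanogaster reads were at least 60.7-fold fewer, at an edgeR adjusted p of 1.49e-36. None of its assigned reads was placed on the D. melanogaster genome, while the deposited coverage was 10.9 for Berlin and 0 for C167.4.

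The last 2 exons were both 164 bases long and stood 2 numbers apart. The one with the lower number had 40, 55 and 42 D. melanogaster reads against 0 D. simulans reads in each library, beside 912, 900 and 1095 unassigned reads. Assigned D. melanogaster reads were at least 45.7-fold more, at an edgeR adjusted p of 3.25e-28. The one with the higher number had 19, 24 and 25 D. melanogaster reads against 3, 9 and 5 D. simulans reads, a log2 ratio of 1.99 ± 0.41 (SE) at an edgeR adjusted p of 1.25e-05. The region between them also had 164 bases, with 98.17% identity, and was not called, with a log2 ratio of -0.21 ± 0.12 and an adjusted p of 0.179. Among reads placed on a single genome, the exon of higher number had 68 D. melanogaster reads against 0 of D. simulans, or at least 22.7-fold more with that floor. None of the 5 exons had a mean of 20 assigned reads among those placed on both genomes.

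**Figure D4:**
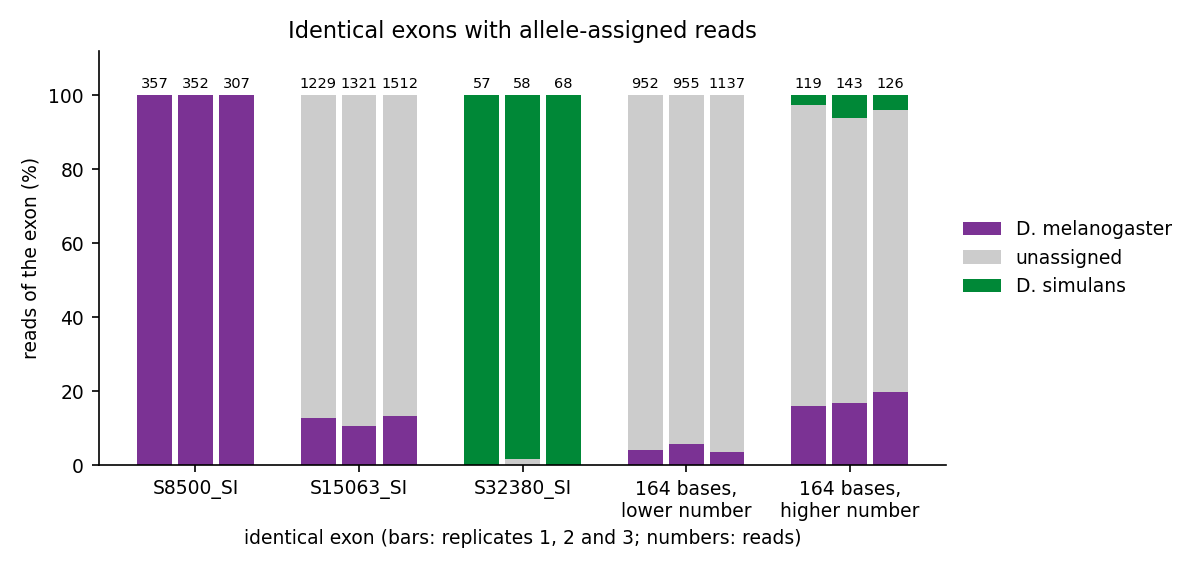
Each bar gives the reads of 1 identical exon in 1 replicate as percentages assigned to D. melanogaster, unassigned and assigned to D. simulans, with the read number above it. S8500_SI and S32380_SI are assigned almost in full, to opposite species, and the other 3 are mostly unassigned.

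Of the 8 tested regions beside these 5 exons, 2 were called, both in the direction of the exon they adjoin, where 35.6% of all tested regions were called. Beside S8500_SI, a region of 408 bases and 99.75% identity had a log2 ratio of 0.12 ± 0.08 with an adjusted p of 0.268. On its other side, a region of 171 bases, the length of S8500_SI, had 88.3% identity and 2272, 2693 and 2358 D. melanogaster reads against none of D. simulans. Beside S15063_SI, a region of 658 bases had a log2 ratio of 0.05 ± 0.05 with an adjusted p of 0.463, and one of 355 bases had 2.38 ± 0.06. Beside S32380_SI, a region of 209 bases had -0.35 ± 0.25 with an adjusted p of 0.286, and the other neighbour is itself an identical exon of 19 bases without a read.

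The remaining identical exons had too few assigned reads for a test, so only their adjoining regions could be tested. Of the 1027 identical exons with a mean of at least 20 reads, 862 (83.9%) had an adjoining other region with enough assigned reads for a test, 474 of them on both sides. These 862 held 85.5% of the 659805 reads of the 1027. The files do not say whether adjoining numbers lie in 1 gene, so a lean beside an exon is not the exon's own.

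Regions adjoining identical exons leaned about as often as regions at large. Other regions with an adjoining number totalled 5248, and 3044 of them were tested. An allele lean was called in 1026 (33.7%), against 35.6% of all tested regions. D. melanogaster reads were in excess in 717 (23.6%, against 23.4% of all tested) and D. simulans reads in 309 (10.2%, against 12.2%). Leans of at least 2-fold were called in 307 (10.1%, against 9.8%). The median log2 ratio was 0.09 in adjoining and 0.09 in all tested regions, and 0.11, 0.10 and 0.08 in adjoining regions against 0.10, 0.10 and 0.08 in all tested in replicates 1, 2 and 3. With TMM scaling between the alleles, 550 and 443 adjoining regions were called toward D. melanogaster and D. simulans. Together that was 32.6%, against 34.6% of all tested regions in that fit. The D. melanogaster part of calls was 55.4%, against 69.9% without scaling. The DESeq2 Wald test called 520 (17.1%, against 17.8% of all tested in that fit).

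Identity and depth moved with these shares. Adjoining regions had a median identity of 97.24%, against 96.7% in all tested regions. At 95% to 97% identity, 39.9% of 989 adjoining and 38.2% of all tested regions were called, and at 97% to 99% 27.2% of 1447 and 27.8%. By depth, the called part was 20.6% in adjoining and 20.7% in all tested regions averaging 20 to 50 assigned reads. At 1000 or more it was 59.0% of 283 and 66.4%. Beside the identical exons with a mean of at least 20 reads alone, 387 of 1291 adjoining regions were called (30.0%).

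Where both sides of an identical exon leaned, they mostly leaned to the same allele, as they did around other regions. Both adjoining regions were tested for 978 identical exons and called for 133 (13.6%), against 15.9% of 22089 other regions. The pair leaned to D. melanogaster on both sides of 77 exons and to D. simulans on both sides of 29, and in opposite directions at 27. The same direction was thus found in 79.7% of the 133, against 74.1% of the 3516 pairs around other regions. This difference was not tested. The count of 106 with the same direction was 67, 68 and 68 without replicate 1, 2 and 3, 51 without the replicate block and 38 in the DESeq2 Wald test. The part in the same direction ranged from 72.6% to 83.8% over all alternatives. Across the 978 exons, the log2 ratios of both sides correlated at a Pearson's r of 0.155 and a Spearman's rho of 0.193, against 0.135 and 0.225 around other regions, as a description, since regions share libraries and the ratio of a region with no read of an allele depends on the fit's prior count.

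**Figure D5:**
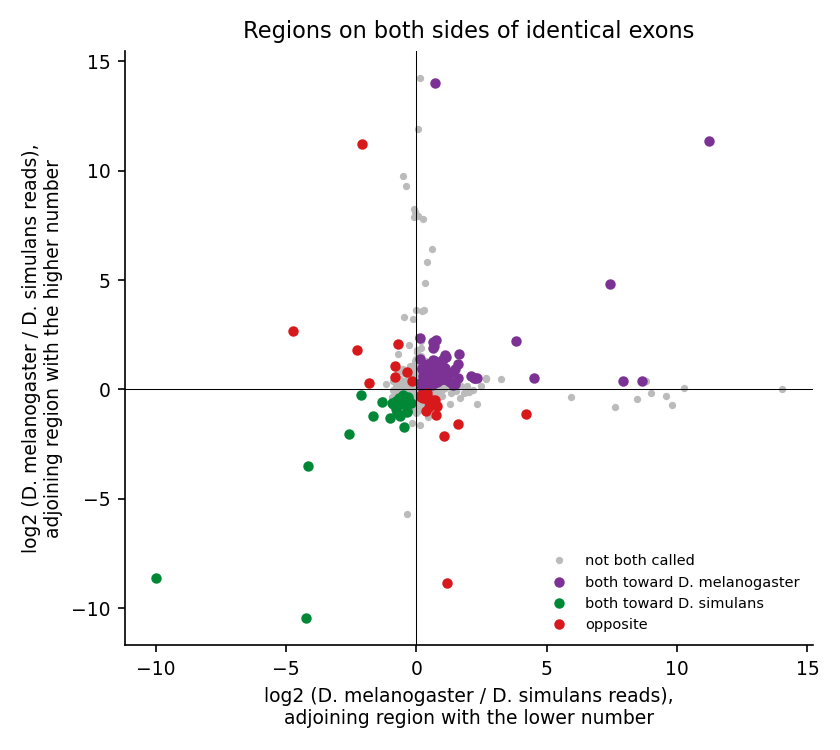
Each point is an identical exon, with the log2 ratio of D. melanogaster to D. simulans reads in the adjoining region of lower number on the x axis and of higher number on the y axis. The coloured points are the 133 with both regions called, 77 toward D. melanogaster, 29 toward D. simulans and 27 opposite, and ratios where an allele had no read depend on the fit's prior count.

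The strongest cases by the smaller of both ratios stood around unread exons. S6_SI, an identical exon of 66 bases without a read, lay between regions of 1536 and 756 bases. In these, D. melanogaster gave 99.96% ± 0.0114 and 99.96% ± 0.0200 of assigned reads (SD, n = 3). No gene or position is given for the regions, so whether both parents passed them on was not tested. S16185_SI, of 43 bases and also unread, lay between a pair of regions of 400 bases each. One had 0 D. melanogaster reads in each replicate against 108, 131 and 139 D. simulans reads, and the other 0 against 41, 71 and 35. D. melanogaster was at least 126-fold and 49-fold lower there. S32437_SI, of 1057 bases and unread, lay between a region of 1975 bases with a log2 ratio of -4.72 ± 0.17 and one of 1265 bases with 2.68 ± 0.46, in opposite directions. The first had 3, 37 and 3 D. melanogaster reads against 400, 399 and 330 of D. simulans. Replicate 2 stood above the others there, and without it the log2 ratio was -6.87. The second had 18, 42 and 12 against 1, 7 and 3, and without replicate 2 it had too few reads to be tested.

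Cases around exons with a mean of at least 20 reads were chosen after their values were seen. An identical exon of 150 bases had 29, 32 and 37 unassigned reads in replicates 1, 2 and 3. Its adjoining regions, of 417 and 382 bases, leaned to D. melanogaster by 0.97 ± 0.16 and 0.89 ± 0.20. An exon of 146 bases had 54, 72 and 60 reads, and its adjoining regions, of 514 and 421 bases, leaned to D. simulans, with D. melanogaster at 33.2% ± 3.51 and 28.8% ± 3.10 of assigned reads (SD, n = 3). An exon of 78 bases had 87, 113 and 97 reads between opposite leans. A region of 110 bases beside it had 7, 12 and 7 D. melanogaster reads against 28, 36 and 49 of D. simulans, and one of 152 bases had 245, 342 and 304 against none. For these 3 exons, expression was measured in every library and the allele that gave it was not.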

How the data were processed

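The authors deposited, per library, a table of 60040 exonic regions with raw read counts in 10 match classes, per the file headers. Reads that matched the references equally form 2 classes, and 4 classes per allele hold reads that matched 1 reference only or better. Bowtie is named in the submitters' processing notes, while its version, the build, the annotation and the mismatch limits are not given in these sources. The deposited percent values (identity, altered positions), the coverage signal and the lengths were the same in the 3 files. RNA was polyadenylated RNA copied with random hexamers, per the labels' protocols.

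Tables were joined on the identifier. Counts of the 4 classes of an allele were summed per library. Regions with a mean of at least 20 assigned reads per library were tested with edgeR 4.0.16 (R 4.3.3) quasi-likelihood F tests over the 6 columns (allele by library), blocked by replicate since a library holds both alleles of 1 RNA pool, 1 library size per library, no scaling between alleles and Benjamini-Hochberg adjustment over all regions tested. Standard errors are the log2 ratio over the square root of F. DESeq2 1.42.0 was an alternative, as were other scalings, filters, read classes, definitions of adjoining regions and each replicate left out. The procedure was tested on simulated data. Read densities are reads per base of the D. melanogaster length, summed over classes and not scaled to the library total. Log2 densities used a pseudocount of 0.01. Medians of single libraries' log2 allele ratios used a pseudocount of 0.5.

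Named exons were the 2 with the most reads, the longest with a mean of at least 20 reads, those called themselves (up to 2 per direction) and, for each direction and for opposite directions, the one whose adjoining regions were both called with the largest smaller ratio. The set of exons and the rules were chosen with earlier results of these data known. A control of genomic DNA is mentioned in the labels and not analysed here, so placement was not corrected for. No molecular identifiers are described. Each replicate had its own sequencing lane, so spread between pools of flies and between lanes cannot be told apart. The p-values rest on that spread and on the fitted model. For S8500_SI the edgeR adjusted p was 4.59e-137 as reported and 4.84e-24 without a filter on low counts. The DESeq2 Wald test gave an adjusted p of 5.81e-18.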

Additional observations from a re-analysis of the deposited data

How the results depend on the processing

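The 5 identical exons that passed the filter were called under both scalings, the DESeq2 Wald test and no replicate block. They were also called with reads placed on a single genome and without each replicate (5 to 5). Without a filter on low counts 8 of 22 were called, where 23.8% of all regions tested were. With a mean of at least 50 assigned reads it was 3 of 3, where 41.0% of all regions tested were called. With reads placed on both genomes it was 0, as none was tested. Of the adjoining regions, 1026 in the fit as reported, 520 were called by the DESeq2 Wald test, 627 with reads placed on both genomes and 387 beside identical exons with a mean of at least 20 reads. Without the replicate block it was 688. Without each replicate it was 802 to 804. The share called stayed within 6 percentage points of that of all tested regions under each alternative. Identical exons with the same lean on both sides, 106 as reported, numbered 38 in the DESeq2 Wald test, 51 without the replicate block, 53 with reads placed on both genomes, 58 with reads placed on one genome, 67 to 68 without each replicate and 46 with a mean of at least 20 reads. The causes were not tested, except that fewer regions entered under the stricter filters.

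The median density of identical exons, 0.0108 reads per base, was 0 with exact-match classes only, 0.474 in exons with a mean of at least 20 reads, 0.271 with 53 bases taken off the length of regions over 100 bases, and 0.151 with deposited coverage in both genotypes, an alternative chosen after seeing the data. The difference to other regions, -0.155 as reported, was -0.0772, 0.117, 0.0415 and -0.0587 in the same order, and 0.0132 as a mean over length classes weighted by the number of identical exons in each (0.0938 in identical exons against 0.0805 in others). It thus depended on which lengths and depths were compared. A minimum mean of 20 reads demands a higher density of a shorter region, so the 0.117 under that filter is not free of length. The assigned share was 1.20% with 100% identity whatever the lengths, and 0.0181% without the 5 exons that passed the filter, also chosen after seeing the data. Of 170 further log2 ratios of 17 named regions under these alternatives, 169 kept direction and call. The exception was the region of 382 bases, at 0.61 with reads placed on one genome (adjusted p = 0.130). Depth set the precision, with a median SE of the log2 ratio of 0.36 in adjoining regions averaging 20 to 50 assigned reads and 0.061 at 1000 or more.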
